A study of Homo sapiens with 2 samples.

Results

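MYC and the genes of the MAX network were followed in A549 cells, a human lung adenocarcinoma line, after silencing of the long noncoding RNA MILIP, which the study describes as inducible by c-Myc. The 10 genes were chosen by symbol, with earlier results of these data known, and are MYC, MYCL, MAX, MXD1, MXI1, MXD3, MXD4, MNT, MGA and MLX. They are 10 of the 60711 genes in the deposited table and 10 of the 27856 genes with values. Cells had been given control siRNA or MILIP siRNA by lipid transfection, and RNA was taken 48 h later and sequenced as 1 library per condition. Replicate cultures were not sequenced, so the spread between cultures is unknown and no test was run. Effects of the siRNA on other transcripts and effects of the loss of MILIP cannot be told apart in this design.

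The proteins of this network carry a basic helix-loop-helix leucine zipper and bind DNA as dimers, preferring the E-box CACGTG. MAX is the shared partner. With MAX, c-Myc recruits coactivators and raises transcription of genes for ribosome production, nucleotide synthesis and cell growth, whereas the MXD proteins, MXI1 and MNT compete for MAX and bring SIN3 and histone deacetylases to the same sites. MGA pairs with MAX inside a Polycomb repressor complex called PRC1.6, and MLX is the related partner of the glucose-responsive factors MondoA and ChREBP, and of some MXD proteins and MNT. The members were described in the order activators, shared partner, opposing partners, and the MGA and MLX arms.

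The deposited value of a gene is a normalized read count, a read count multiplied by a fixed factor per library. Summed over genes, the control library held 20300800 reads and the MILIP siRNA library 19460956. MILIP itself (ENSG00000265688, symbol MAFG-AS1) was at a normalized read count of 29.5 in the control and 3.22 after MILIP siRNA, whereas its neighbor MAFG had 190.1 and 176.0. GAPDH had a log2 ratio of −0.16 and ACTB a log2 ratio of 0.24. The labelled cell type was checked with 11 epithelial and A549 markers. All of them were tested, that is, had a mean normalized read count of at least 1, and 5 (45.5%, against 11.1% of all tested genes) were at least 1.5-fold higher and 1, KRT7 (9.09%, against 13.8%), at least 1.5-fold lower after MILIP siRNA, and their summed normalized read count was 14554 with control siRNA and 19858 with MILIP siRNA. Most of the difference in that sum lay in ALDH1A1, at 5237 and 9750, whereas KRT7 had 1508 and 810.0. In all, 9 markers had log2 ratios above 0 and 2 below. MUC1 was listed at 0 with control siRNA. Here and below, a listed 0 cannot be told apart from a count under 20 reads, as no smaller count above 0 was listed. All 5 endothelial markers, 6 of 7 immune markers, 5 of 6 fibroblast markers and the 3 genes of the CDKN2A locus that A549 cells lack were at 0 or without a value in both libraries. The exceptions were CD14, at 4.46 and 9.60, and THY1, at 4.51 and 4.22.

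Because the network reads the E-box, the windows around the transcription start sites of its own genes were searched for CACGTG, which reads the same on both strands. RefSeq promoters (GRCh38.p14, 250 bases before to 50 bases after the start) were on hand for 9 of the 10 members, all but MYC. They were 14 promoters, and the motif was found in 3 of them, those of MXD4, MNT and MLX. Across the whole table it was found in 7.26% of 35116 promoters, or in 8.78% of 27305 genes. Unlike the members, many of those genes were not tested here, and the counts among tested genes are given below. The stretches below are shown because they carry the only matches among the members, with the E-box in capitals and each read 5′ to 3′ on the strand of its gene.
MXD4: gggccgggccacCACGTGctgttgctaa
MNT: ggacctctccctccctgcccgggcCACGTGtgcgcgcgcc
MLX: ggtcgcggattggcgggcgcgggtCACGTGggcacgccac
The MXD4 stretch is chr4:2262332-2262359 on the minus strand, with the motif 238 bases before the start site. The MNT stretch is chr17:2401238-2401277 on the minus strand, with the motif 193 bases before the start. The MLX stretch is chr17:42567026-42567065 on the plus strand, with the motif 50 bases before the start. MILIP and MAFG are transcribed away from each other from neighboring start sites, and the stretch between them also holds the motif, 16 bases before the MAFG start.
MAFG: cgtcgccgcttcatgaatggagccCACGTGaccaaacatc
This stretch is chr17:81927736-81927775, read on the minus strand. The 3 members with the motif did not move together, since MXD4 was higher, MLX was lower and MNT lay within 1.5-fold, as detailed with their values. A match alone describes these letters in this window and does not show a bound site. The motif of the MAFG stretch lies in the study's primer for c-Myc chromatin immunoprecipitation at the MILIP promoter, where the study reported c-Myc binding. Deletion of this c-Myc binding region lowered MILIP in the study, whereas MAFG mRNA did not change with c-Myc knockdown or overexpression. Among tested genes with a promoter in the table, the 1303 with the motif had a median log2 ratio of −0.08 and the 9046 without it one of −0.02, and 15.7% against 13.6% were at least 1.5-fold lower.

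MYC (ENSG00000136997) was lower after MILIP siRNA. Its normalized read count was 177.9 with control siRNA and 111.5 with MILIP siRNA, from 3552 and 2218 reads. On the scale of log2(normalized read count + 1), the ratio was −0.67, a 1.59-fold difference. The exact (Clopper-Pearson) 95% limits were −0.75 to −0.60. Such limits, here and throughout, belong to the ratio of reads with no pseudocount and cover counting error only. Among the 13521 genes tested, those with a mean of at least 1, 11.1% had a lower ratio than MYC. As these are bulk libraries, fewer cells that express a gene and less of its RNA per cell cannot be told apart.

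MYCL (ENSG00000116990; chr1:39895426-39902256, minus strand, in GENCODE 29 on GRCh38) encodes L-Myc, the paralog best known from small cell lung cancer. It was barely detected, with normalized read counts of 1.75 and 1.71 from 35 and 34 reads. Its log2 ratio of −0.02 had limits of −0.76 to 0.69, so that a 1.5-fold difference in either direction was not detectable at this depth. MYCN, the third MYC gene, had no value listed. Among the MYC-family genes, MYC was thus the only one listed well above the detection floor.

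MAX (ENSG00000125952; chr14:65006174-65102695, minus strand), the obligate partner of c-Myc, stayed within 1.5-fold. Its normalized read count was 44.8 with control siRNA and 48.6 with MILIP siRNA, from 895 and 966 reads. The log2 ratio was 0.11 with limits of −0.02 to 0.25, which include 0.

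The 5 MAX partners that oppose c-Myc did not share a direction. MXD3 and MXD4 were more than 2-fold higher after MILIP siRNA, MNT and MXD1 had smaller positive ratios, and MXI1 had a negative ratio. MXD4 (ENSG00000123933; chr4:2247432-2262294, minus strand), often found in differentiating cells, had normalized read counts of 33.6 and 84.2, from 671 and 1675 reads. Its log2 ratio of 1.30 (limits 1.20 to 1.46) was the largest among the members and exceeded that of 98.3% of tested genes. MXD3 (ENSG00000213347; chr5:177301461-177312757, minus strand), the member of the family that has been linked to S phase and to proliferating progenitors, had normalized read counts of 16.6 and 37.6, from 331 and 748 reads. Its log2 ratio was 1.14 (limits 0.99 to 1.37), above that of 97.6% of tested genes. Exons of MXD3 overlap those of neighboring genes, PRELID1 on the opposite strand over 22.5% of its exon length and RAB24 on the same strand over 18.0%. Neither neighbor was higher after MILIP siRNA, PRELID1 being listed at 102.0 and 96.5 and RAB24 at 4.01 and 3.72.

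MNT (ENSG00000070444; chr17:2384060-2401118, minus strand), the broadly expressed antagonist of c-Myc, had normalized read counts of 25.9 and 35.4 from 517 and 705 reads. The log2 ratio of 0.44 (limits 0.29 to 0.62) was a 1.36-fold difference. MXD1 (ENSG00000059728; chr2:69897688-69942945, plus strand), the founding MXD gene, had normalized read counts of 13.6 and 16.0. Its log2 ratio of 0.22, from 271 and 318 reads, had a lower limit of −0.002 and an upper limit of 0.48. For both genes the value was larger with MILIP siRNA, and for MXD1 the limits reached 0. MXI1 (ENSG00000119950; chr10:110207605-110287365, plus strand), also called MXD2, went the other way with normalized read counts of 17.3 and 11.9 from 345 and 236 reads. Its log2 ratio of −0.51 (limits −0.79 to −0.30) was a 1.42-fold difference and did not reach the 1.5-fold threshold.

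MGA (ENSG00000174197; chr15:41621224-41773081, plus strand), a very large protein with a T-box domain besides its helix-loop-helix, was lower after MILIP siRNA. Its normalized read count was 52.6 with control siRNA and 30.4 with MILIP siRNA, from 1050 and 604 reads. The log2 ratio of −0.77 (limits −0.94 to −0.65) was the lowest among the members, and 8.25% of tested genes had a lower ratio. With the trend of ratios with transcript GC content removed, it was −0.58 and inside 1.5-fold.

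MLX (ENSG00000108788; chr17:42567068-42573239, plus strand) had normalized read counts of 52.2 and 34.0, from 1043 and 677 reads. Its log2 ratio of −0.60 (limits −0.76 to −0.48) was a 1.52-fold difference and lay just past the threshold. Scaling by the median of ratios gave −0.57 and scaling to the sum of the listed values −0.55, both inside 1.5-fold. Exons of PSMC3IP on the opposite strand overlap 18.1% of the MLX exon length, and PSMC3IP was listed at 11.3 and 10.6. The dimer partners of MLX had ratios of the opposite sign. MLXIP, which encodes MondoA, had normalized read counts of 90.1 and 124.9 and a log2 ratio of 0.47 (limits 0.38 to 0.56). MLXIPL, which encodes ChREBP, had 3.86 and 8.45 and a log2 ratio of 0.96 (limits 0.73 to 1.54), at least 1.5-fold higher.

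**Figure D1:**
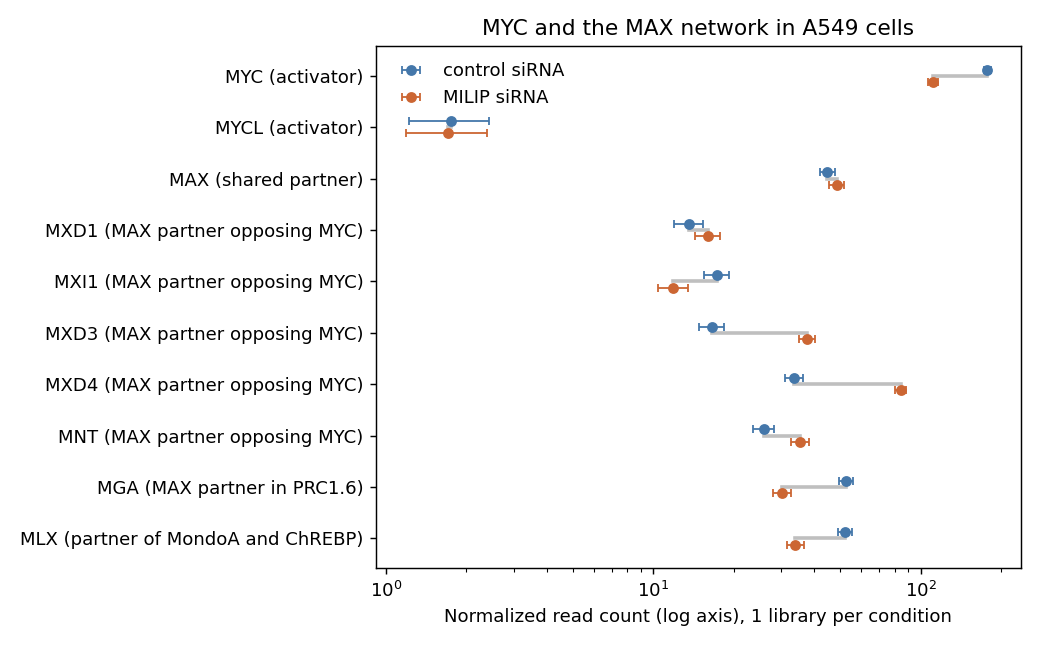
Normalized read counts of the 10 network genes on a log axis, with 1 point per library (control siRNA and MILIP siRNA) and bars for the 95% counting limits. MYC had the largest value, not adjusted for length, in both libraries, 177.9 and 111.5, and the points of MXD3 and MXD4 lie farthest apart, with MILIP siRNA to the right.

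Of the 10 members, all of which were tested, 2 were at least 1.5-fold higher and 3 at least 1.5-fold lower, where 11.1% and 13.8% of all tested genes were. With so few members these counts are a description and cannot be read as a property of the network. The median log2 ratio of the members was 0.05, beside −0.03 for all tested genes, with 5 members above 0 and 5 below. The counting limits of 7 members left out 0, as did those of 67.5% of all tested genes, so that at this depth limits without 0 were common. The middle 95% of all log2 ratios ran from −1.29 to 1.12. MXD3 and MXD4 lay above this range and no member lay below it. With the trend of ratios with transcript GC content removed, MXD3 and MXD4 exceeded 96.9% and 97.3% of tested genes, which is inside the middle 95%.

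**Figure D2:**
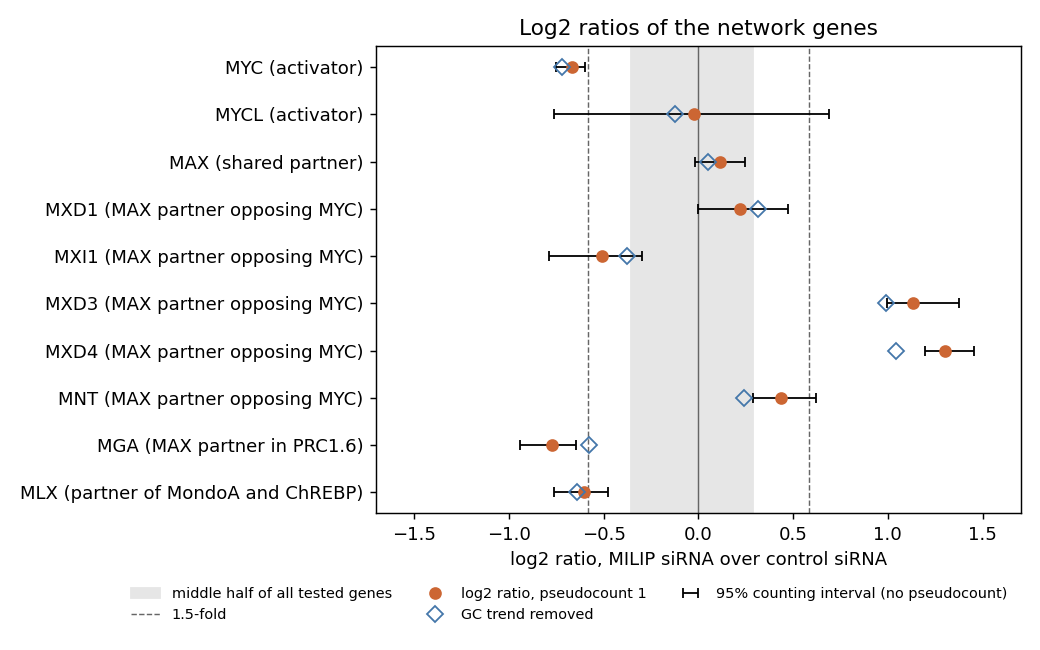
Log2 ratios of the 10 network genes, MILIP siRNA over control siRNA, with a pseudocount of 1 (filled points), 95% counting limits of the ratio without a pseudocount (bars) and the ratio after removal of the GC trend (open diamonds). The dashed lines mark 1.5-fold and the gray band the 25th to 75th percentile of all tested genes, −0.36 to 0.29. MXD3 and MXD4 lie right of the upper line by both measures, and MYC, MGA and MLX lie left of the lower line, MGA only before the GC trend is removed.

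Across all tested genes, log2 ratios were higher for GC-rich transcripts, from a median of −0.21 in the fifth of genes with the lowest GC content to 0.18 in the fifth with the highest. Transcripts of MXD4 and MNT, with 64.0% and 61.4% GC, lie at the GC-rich end, and those of MGA, MXD1 and MXI1, with 42.0%, 42.7% and 43.7%, at the GC-poor end. After removal of this trend, the log2 ratio of MXD4 was 1.04 and that of MXD3 was 0.99, both still at least 1.5-fold higher. MNT moved from 0.44 to 0.24 and MXI1 from −0.51 to −0.38. MYC, with 53.9% GC, had a ratio of −0.72, lower than without the correction. The median over the 10 members was −0.04 after the correction, near that of all genes. The part of GC content in the remaining differences was not tested.

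Levels were compared between genes as the normalized read count per kb of annotated exon. The order depends on this length, which took all annotated exons, as the isoforms expressed were not determined. Exons of MXD3 and MLX partly overlap those of neighboring genes, and how reads there were counted is not given. Per kb, MYC led by a wide margin, with 59.3 with control siRNA and 37.2 with MILIP siRNA. In the control library MLX followed at 12.3, MAX at 10.1 and MXD4 at 4.76. The limits of MXI1 at 3.75 (limits 3.37 to 4.17) overlapped those of MXD3 at 3.22 (limits 2.88 to 3.58). The limits of MXD3 overlapped those of MGA at 2.98 and MNT at 2.97. Overlap of limits does not show equal levels, and the order of these neighbors was not tested. MXD1 came next at 2.14 and MYCL was last at 0.346. In the MILIP siRNA library MXD4, at 11.9 (limits 11.4 to 12.5), was next to MAX at 11.0 (limits 10.3 to 11.7). MXD3 at 7.30 (limits 6.78 to 7.84) was next to MLX at 7.99 (limits 7.40 to 8.62). The limits overlapped in each pair, and the order within a pair was not tested. MNT had 4.06, MXI1 2.58, MXD1 2.52, MGA 1.72 and MYCL 0.338. The limits of MXI1 and MXD1 overlapped here, although MXI1 had been above MXD1 in the control library. MXD4 thus stood below MLX and MAX in the control library and beside MAX after MILIP siRNA, and MGA stood beside MXD3 and MNT in the control library and above only MYCL after MILIP siRNA.

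The balance between MYC and the opposing partners was described by ratios within each library, which no scaling between libraries can alter. The trend of ratios with GC content is not such a scaling, and it was not removed from these sums. With that trend removed, the log2 ratios of MXD3, MXD4, MNT and MYC were lower, and those of MXD1 and MXI1 higher. The normalized read counts of MXD1, MXI1, MXD3, MXD4 and MNT summed to 106.9 in the control library and 185.1 after MILIP siRNA. Relative to MYC, the sum was 0.601 in the control library and 1.66 after MILIP siRNA, a 2.76-fold difference in the ratio. Per kb of exon the ratio was 0.284 and 0.764, which places MYC above the summed partners in both libraries. That order depends on the length used, here all annotated exons of a gene, as the isoforms expressed were not determined. Without adjustment for length the summed partners exceeded MYC after MILIP siRNA. Of the sum of normalized read counts, not adjusted for length, MXD3 and MXD4 together made up 46.9% with control siRNA and 65.8% with MILIP siRNA. MXD4 alone made up 31.4% and 45.5%. MYC per kb was 5.86 times MAX with control siRNA and 3.39 times MAX with MILIP siRNA. These are transcript levels, and no protein or dimer was measured in these libraries.

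The genes whose pair of values was most like that of MYC were sought among the 316 genes with a control value within 10% of its own, by the nearest log2 ratio. They were PSMF1, with normalized read counts of 178.7 and 111.5, MCMBP, with 173.8 and 109.6, and PTDSS1, with 165.2 and 104.0. Likeness here rests on 2 libraries.

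Genes that c-Myc is known to activate were mostly below 0. Of 80 listed genes, 79 passed the filter, and their median log2 ratio was −0.40, against −0.03 for all tested genes, with 65 below 0 and 14 above. The list was chosen with earlier results of these data known. At least 1.5-fold lower were 28 genes (35.4%, against 13.8% of all tested genes), and 2 genes (2.53%, against 11.1%) were at least 1.5-fold higher. Scaling by the median of ratios left 23 lower (29.1%, against 12.8%), as did scaling to the sum of the listed values (29.1%, against 12.1%). At a 2-fold threshold the shares lower were 5.06% of the list (4 genes) and 4.62% of all tested genes, so that the shares were close at 2-fold. The 3 lowest ratios were those of TERT, the catalytic subunit of telomerase, with normalized read counts of 10.0 and 2.72 and a log2 ratio of −1.57, of UTP20, a factor of small ribosomal subunit processing, with 102.8 and 41.1 and a ratio of −1.30, and of RCL1, another factor of 18S rRNA processing, with 44.5 and 19.0 and a ratio of −1.19. The 3 highest were SLC1A5, a glutamine transporter, at 186.9 and 313.4 with a ratio of 0.74, NOLC1, a nucleolar phosphoprotein, at 117.7 and 180.3 with a ratio of 0.61, and TFAP4 at 24.7 and 33.8 with a ratio of 0.44. The other lower genes are given with a few values chosen after the ratios were seen. They were the nucleolar or ribosome production genes NCL, DDX21, NOP2, WDR43, BOP1, NOP16, NOP56, GRWD1, DDX18, MYBBP1A, BYSL, GNL3, POLR1B, RRS1, MRTO4, IMP4 and RRP9, the purine synthesis enzymes PPAT and GART, the glycolytic enzymes HK2 and LDHA, the helicase subunit MCM4, and PRMT3, PUS1 and TFB2M. NCL, an abundant nucleolar protein, had normalized read counts of 1609 and 767.3 and a log2 ratio of −1.07. LDHA, lactate dehydrogenase A, had 2306 and 1512 and a ratio of −0.61. Genes of ribosome production make up much of the whole list and were not tested as a group, and others of them lay within 1.5-fold, such as FBL at −0.17, TCOF1 at −0.09 and PES1 at 0.09. CAD, the first enzyme of pyrimidine synthesis, had a ratio of −0.04 and CDK4, a cell cycle kinase, one of 0.10, and these 5 genes were also named after their values were seen. With the GC trend removed the median of the list was −0.46, with 69 of 79 genes below 0.

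Genes that c-Myc is known to repress had a median log2 ratio of 0.16 over the 15 of 18 that passed the filter, with 9 above 0 and 6 below. Higher were THBS1, which encodes thrombospondin, at 37.0 and 71.6 with a ratio of 0.93, and CDKN1B, which encodes the cell cycle inhibitor p27, at 80.3 and 134.8 with a ratio of 0.74. TGFBR2 had 283.8 and 399.1 with a ratio of 0.49. Lower were HMOX1, heme oxygenase, at 206.0 and 90.2 with a ratio of −1.18, and NDRG2 at 5.71 and 2.41 with a ratio of −0.98, whereas GADD45B had a ratio of −0.54. The shares past 1.5-fold, 13.3% in either direction, were near those of all tested genes, 11.1% and 13.8%.

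Partners that the network proteins recruit lay closer to 0. The 21 coactivators of c-Myc had a median log2 ratio of −0.21, and 1 of them (4.76%, against 13.8% of all tested genes) was at least 1.5-fold lower and 0 higher. It was EP300, a histone acetyltransferase, at 87.3 and 56.8 with a ratio of −0.61, which was within 1.5-fold under both other scalings. RUVBL1, an ATPase of chromatin complexes, had 118.9 and 83.9 with a ratio of −0.50, and BPTF, a chromatin remodeler, 93.4 and 66.9 with a ratio of −0.48. The highest ratios were those of CDK9, the elongation kinase, at 0.58 from 35.2 and 53.2, of DMAP1 at 0.48 and of PAF1, a subunit of an elongation complex, at 0.44. Among 17 corepressors that work with MXD proteins and MNT the median was −0.01. SUDS3, a subunit of the SIN3 complex, was listed at 70.1 and 28.8 with a ratio of −1.25 and NCOR1 at 211.4 and 124.7 with a ratio of −0.76. These 2 genes past 1.5-fold are 11.8% of the list, near the 13.8% of all tested genes. ARID4B had a ratio of −0.29, and the highest ratios were 0.58 for ARID4A, 0.52 for the deacetylase HDAC1 and 0.18 for ING1. SIN3A and SIN3B, the scaffolds of the complex, named here after their values were seen, had ratios of −0.08 and −0.10. The 13 other listed components of PRC1.6, the MGA complex, had a median of −0.02, and MGA itself, at −0.77, lay below each of them, the lowest being RYBP at −0.36, CBX3 at −0.35 and RNF2 at −0.32. CBX1, a chromatin reader, was higher at 150.3 and 227.3 with a ratio of 0.59, and TFDP1 had a ratio of 0.37. HDAC1, HDAC2, WDR5 and SKP2 each stand in more than 1 of the lists around the network.

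For the 22 genes that set the stability of c-Myc protein, the median log2 ratio was −0.40, and −0.26 with the GC trend removed. At least 1.5-fold higher were 2 genes (9.09%, against 11.1% of all tested genes), FBXW7, the ubiquitin ligase that recognizes phosphorylated c-Myc, at 15.6 and 25.6 with a ratio of 0.68 (limits 0.51 to 0.92), and FBXO32 at 10.2 and 15.9 with a ratio of 0.59. AXIN1, a scaffold for c-Myc degradation, had a ratio of 0.29. At least 1.5-fold lower were 5 genes (22.7%, against 13.8%). Scaling by the median of ratios left 4 lower (18.2%, against 12.8%), and scaling to the sum of the listed values 3 (13.6%, against 12.1%). At a 2-fold threshold 0 were lower, against 4.62% of all tested genes. Where the whole counting interval had to lie beyond 1.5-fold, 0 genes were higher (6.73% of all tested genes were) and 3 lower (13.6%, against 9.22%). These 3 were CIP2A, USP37 and HUWE1. Of the 5 lower genes, CIP2A, which protects c-Myc from the phosphatase PP2A, had 75.8 and 39.4 with a ratio of −0.93. USP37, a deubiquitinase of c-Myc, had 16.0 and 8.20 with a ratio of −0.88. SET, another inhibitor of PP2A, had a ratio of −0.62. The other 2 were the ubiquitin ligases HUWE1, at 376.5 and 230.3 with a ratio of −0.71, and FBXL14 with a ratio of −0.60. The lower genes thus include both protectors of c-Myc and ubiquitin ligases.

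RNAs from the neighborhood of MYC and other RNAs that answer to c-Myc were few at this depth. PVT1, the long noncoding RNA next to MYC, had normalized read counts of 23.8 and 18.7 and a log2 ratio of −0.34, and CASC8 had 1.20 and 1.91. CASC11 was listed at 0 in both libraries, POU5F1B, MYCL-AS1 and MYCNOS had no value listed, and CCAT1 was not matched to an identifier. Among other long noncoding RNAs that the study calls responsive to c-Myc, SENEBLOC was not on the list used here. GAS5 had 99.3 and 99.7 with a ratio of 0.01, and IDH1-AS1 had 1.00 and 1.46 from 20 and 29 reads (limits −0.33 to 1.44). OVAAL and DDX11-AS1 were listed at 0 in both libraries, which cannot be told apart from counts under 20 reads. The study reported that OVAAL fell with c-Myc silencing in A549 cells.

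Targets of the MLX arm did not share a direction. Over 8 of 11 listed genes the median log2 ratio was 0.17. TXNIP, the best known MondoA target, was listed at 3.41 and 5.98 with a ratio of 0.66, and its relative ARRDC4 at 3.86 and 4.93 with a ratio of 0.29. TKFC had a ratio of 0.31, KLF10 had 135.3 and 104.5 with a ratio of −0.37, and PFKFB3, a regulator of glycolysis, 477.0 and 369.8 with a ratio of −0.37. HK2, hexokinase, was listed at 6.76 and 3.07 with a ratio of −0.93, and it also belongs to the MYC-activated list.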

How the data were processed

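RNA sequencing libraries of A549 cells, 1 per condition, were grouped by the siRNA given in the labels. The deposited table holds 1 normalized signal value per gene and library, and the authors' log2 fold change, p-value, q-value and call of change, which were not used. The column names speak of read counts, but each deposited signal value above 0 is a whole multiple of 0.0501 (control siRNA) or 0.0503 (MILIP siRNA) within 0.01 of a step. A step was taken as 1 read. No value above 0 stood for fewer than 20 reads, so that a listed 0 cannot be told apart from a count under 20 reads. The submitters' processing notes name TopHat2 2.0.12, HTSeq 0.6.1 and hg38. The annotation, the use of strand and the normalization are not given in the sources used here.

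A pseudocount of 1 was added before log2 ratios were taken, for genes with a mean of at least 1, and differences were counted from 1.5-fold. Counting limits were exact (Clopper-Pearson, 95%). Positions, exon lengths and GC content came from GENCODE 29, matched for 99.1% of tested genes. The rule for named genes took all members, MYCN, MLXIP and MLXIPL, the 3 highest and 3 lowest log2 ratios of each list, lists of at most 7 genes, the markers (given as counts), MILIP, MAFG, GAPDH, ACTB and the 3 genes most like MYC. Other genes were named after their values were seen. The members and lists were chosen with earlier results of these data known. The calculations were tested on simulated data. The tools were pandas 2.3.3, numpy 2.4.6, matplotlib 3.10.9 and scipy 1.17.1 under Python 3.11.15.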

Additional observations from a re-analysis of the deposited data

How the results depend on the processing

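No paired analysis was possible because only 1 library represents a condition, and no library could be left out. The alternatives were scaling to the sum of the listed values or by the median of ratios, a pseudocount of 0.1, no filter, a 2-fold threshold, a minimum mean of 5, a call only where the whole counting interval lay beyond 1.5-fold, and, chosen after seeing the data, removal of the GC trend. MXD3 and MXD4 were called higher under all of them, with log2 ratios of 0.99 to 1.19 and 1.04 to 1.35. MYC was called lower under all except the 2-fold threshold, which left 0 members lower. MLX was within 1.5-fold under both scalings and under the whole-interval rule, and MGA with the GC trend removed. MYCL was not tested with a mean of at least 5. Over all genes, the 2-fold threshold left 471 genes higher and 625 lower, and the whole-interval rule 910 higher and 1247 lower. Higher and lower genes numbered 1507 and 1869 as reported, and 1754 and 1631 when scaled to the sum. The median of the MYC protein stability genes was −0.26 with the GC trend removed. Of the MYC-activated genes, 20 (25.3%, against 9.22% of all tested genes) were lower by the whole-interval rule and 4 (5.06%, against 4.62%) at 2-fold. The whole-interval rule also left 0 coactivators lower. No log2 ratio of a called member reversed. The causes of these shifts were not tested, apart from the 2-fold threshold and the interval rule, which call fewer genes by construction.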
